A study of Mus musculus with 2 samples.

Results

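The Sfmbt2 repeat cluster is a dense array of miRNA genes of the Mir297, Mir466, Mir467 and Mir669 families on mouse chromosome 2. Its members were taken by position alone: every gene of the count tables that lies on chromosome 2 between 10466000 and 10519000 on GRCm38, the build also called mm10. That gave 105 members among 1973 counted miRNA genes. By the annotation all 105 lie on the plus strand inside introns of Sfmbt2 (10370510 to 10595253), and 0 overlap one of its exons. No measured value entered this rule, although it was set with earlier results of these data known.

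MicroRNAs are cut from hairpin precursors, and the short mature strand guides silencing of mRNAs that match its seed, the bases from position 2 to 8. Sfmbt2 encodes a Polycomb-group chromatin protein. It is imprinted and expressed from the paternal allele in the early mouse embryo and its extraembryonic tissues, and its intronic miRNA array, which arose by local duplication in rodents, is known mainly from the placenta and from embryonic stem cells. Because its hairpins are near copies of one another, a short read often fits several of them.

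The data are 2 microRNA-seq libraries, biological replicates 1 and 2 of a single group: hearts of healthy B6NCrl mouse embryos at day 11.5, males and females pooled, with small RNA under 30 nt sequenced. Replicate 1 came from 109 pooled embryos; for replicate 2 no embryo number was given. With a single group there was no contrast between conditions, so spread is given as the SD over n = 2. Whole hearts mix many cell types, and fewer cells of a type and less RNA per cell cannot be told apart.

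Own-strand counts on all miRNA genes, meaning reads on the strand of the gene, totalled 18467499 in replicate 1 and 2017294 in replicate 2. CPM is a gene's counts scaled to a total of 1000000 for the library. A count of 0 allows up to 3 counts, or 0.162 CPM in replicate 1 and 1.49 CPM in replicate 2. The heart label was checked against muscle miRNAs from myosin genes: Mir208a, Mir208b and Mir499 summed to 58391 and 63137 CPM in replicates 1 and 2. The other marker lists, of 1 to 6 genes each, summed in the same order to 79505 and 84700 CPM for endothelium, 93726 and 98626 CPM for smooth muscle, 995 and 983 CPM for red cells, 395 and 160 CPM for liver, 1324 and 831 CPM for epithelium and 652 and 601 CPM for early embryo and trophoblast. Of the 6 neural genes 2 were in the table, with 24 counts in replicate 1 and 0 in replicate 2. Their part in the cluster's counts was not tested.

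Sequences of the families are rich in alternating G and U or C and A. Among the RefSeq miRNA sequences at hand (GRCm38.p6), which need not be all that RefSeq annotates, 0 of the 105 members had a match. Of the 10 same-family genes that lie elsewhere in the genome, 9 had one. Mature strands of 3 of those relatives, 1 each for Mir466, Mir467 and Mir669, are shown so that the kind of repeat can be seen, 5′ to 3′ with the seed in capitals. They lie at chr3:85467396-85467418, chr9:115381898-115381919 and chr3:115979905-115979924, all on the plus strand.
mmu-miR-466k: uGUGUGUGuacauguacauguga
mmu-miR-467h: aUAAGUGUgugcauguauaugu
mmu-miR-669n: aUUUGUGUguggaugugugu
The 3 seeds differ from one another, although each strand holds a run of alternating G and U. The same composition held across the cluster. A median of 48.6% of neighbouring base pairs in a member's hairpin were TG, GT, CA or AC (range 32.5 to 66.7%), against a median of 26.6% over 1789 other annotated hairpins in the table. The members' median GC content was 38.3%, against 52.0% for the others.

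As a whole the cluster was a small but steady part of the heart miRNA pool. Replicate 1 gave 73657 counts on its members and replicate 2 gave 7903. That is 0.399% of miRNA counts in replicate 1 (exact 95% Clopper-Pearson interval 0.396 to 0.402%) and 0.392% in replicate 2 (0.383 to 0.400%), a mean of 0.395% ± 0.005 (SD, n = 2). Such intervals cover counting error only. The log2 ratio of the cluster sum, replicate 2 over replicate 1, was -0.03, with an exact interval of -0.06 to 0.01 that includes equality. Reads lay almost wholly on the members' own strand: the opposite strand held 2 counts in replicate 1, 1 each at Mir466m and Mir466o, and 0 in replicate 2. The own-strand share was 99.997% in replicate 1 and 100% in replicate 2, against 95.4% and 95.5% over the whole table.

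These counts leave out reads that mapped to several places. The multimapping row of the tables held 12025096 reads in replicate 1 and 1174235 in replicate 2, or 163 and 149 reads for each count on the cluster. Which of them came from these hairpins cannot be told from the tables. The values below are therefore counts of reads that were assigned to 1 hairpin, and a low value does not measure the level of a mature miRNA that several hairpins encode.

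A few members carried nearly all of the counts. At 1 CPM or more in both libraries, 10 of 105 members (9.52%) were detected, where 21.2% of all genes in the table met that rule. In replicate 2 the rule lies below the 1.49 CPM that a count of 0 allows, so it cannot separate low values from 0 there. At least 1 count in either library was held by 31 members (29.5%), against 39.7% of all genes. The remaining 74 were at 0 in both libraries. The 3 genes Mir467c, Mir467d and Mir467e together made up 82.2% of cluster counts in replicate 1 (interval 81.9 to 82.4%) and 82.4% in replicate 2 (81.6 to 83.3%). The 8 leading members took 99.6% and 99.7%.

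Mir467d (ENSMUSG00000077021.2, 10507630 to 10507714) was the most abundant member, with 27489 counts in replicate 1 and 3048 in replicate 2. That is 1489 and 1511 CPM, a mean of 1500 ± 15.9 CPM, which placed it 73rd by mean among all 1973 genes. Mir467e (ENSMUSG00000076948.2, 10505721 to 10505807), its neighbour on the upstream side among the abundant members, had 17437 and 1901 counts, or 944 and 942 CPM. Mir467c (ENSMUSG00000077049.2, 10473931 to 10474027) lies on the other flank of the array, at 844 and 776 CPM from 15593 and 1566 counts. In both libraries the order was Mir467d, Mir467e, Mir467c, and their values did not overlap between genes.

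The Mir669 family supplied the next members. Mir669l (ENSMUSG00000076959.1, 10468971 to 10469068) had 304 CPM in the first library and 282 CPM in the second. Mir669o (ENSMUSG00000077086.1, 10514300 to 10514395), at the opposite end of the cluster, stood at 266 and 254 CPM. Mir669c (ENSMUSG00000076118.1, 10509296 to 10509404) stood at 89.5 and 101 CPM. All 3 were well over the detection floor in both libraries. Mir669e (ENSMUSG00000080653.1, 10467495 to 10467613) had 474 and 53 counts, or 25.7 and 26.3 CPM. Mir669h, the last gene inside the window (ENSMUSG00000080594.1, 10518155 to 10518279), had 84 counts in replicate 1 and 4 in replicate 2, or 4.55 and 1.98 CPM. Its value in replicate 2 lies close to the floor of 1.49 CPM.

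Mir466n (ENSMUSG00000077991.1, 10513741 to 10513834) was the only detected gene of the Mir466 family, with 231 and 32 counts, or 12.5 and 15.9 CPM. Mir297a-2 (ENSMUSG00000076983.2, 10472254 to 10472343) was the only detected gene of the Mir297 family, with 23 and 5 counts, or 1.25 and 2.48 CPM. Both statements hold at the rule of 1 CPM in both libraries. In replicate 2 that rule lies below the 1.49 CPM that a count of 0 allows. Mir297b, with 13 counts in replicate 1 and 0 in replicate 2, therefore cannot be told apart from a gene that meets it. Below that rule, Mir669f had 27 and 1 counts and Mir466 had 24 and 1, and Gm22925 had 14 in replicate 1 and 3 in replicate 2. The 21 members with a count that were not detected summed to 151 counts in replicate 1 and 11 in replicate 2.

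**Figure D1:**
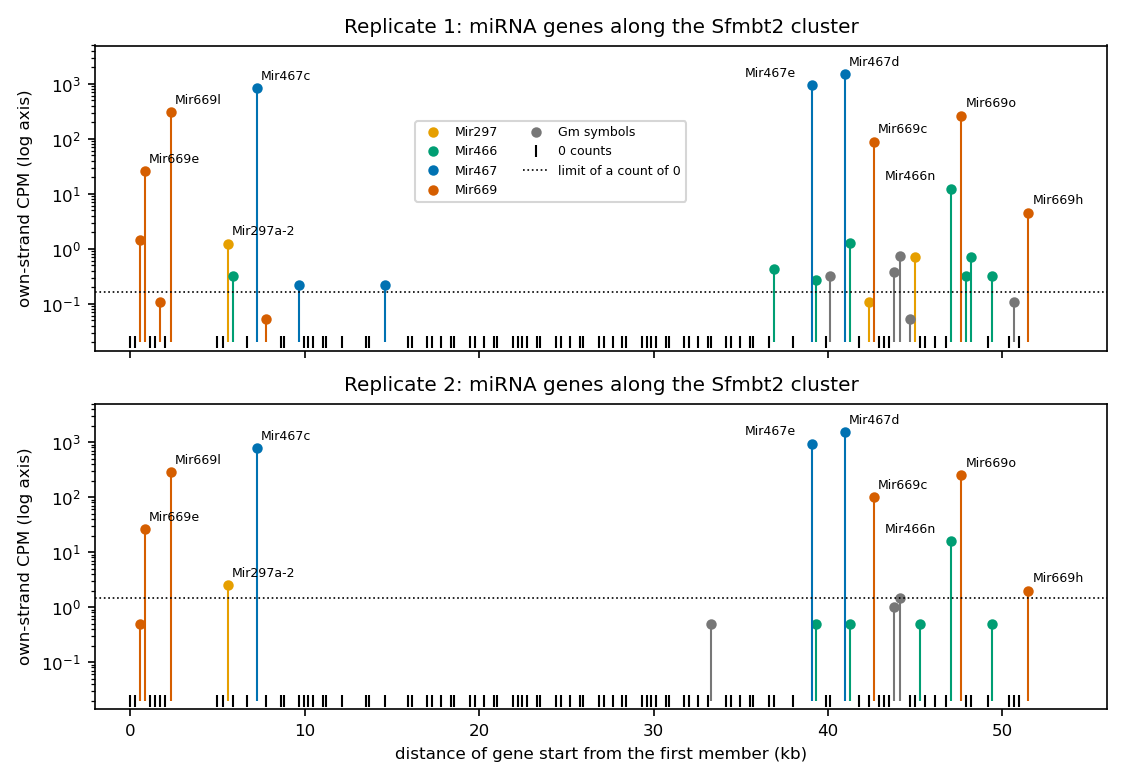
Own-strand CPM (log axis) of the 105 members against the distance of each gene's start from the first member in kb, with replicate 1 above and replicate 2 below; colours give the family, ticks at the bottom mark members with 0 counts, and the dotted line is the limit that a count of 0 allows. The members at 1 CPM or more in both libraries are named and lie on the flanks of the array, with Mir467c, Mir467e and Mir467d highest in both panels.

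The 10 detected members were set in order of mean CPM, and each was compared with the next, a comparison added after these values were seen. Ratios were taken within a library. A difference counted as beyond the spread if the direction was shared by the libraries, each exact binomial interval left out equality and the mean log2 ratio was larger than its SD. The ranking by the same counts fixed the direction of each mean ratio, and the intervals cover counting error only, so the ratios describe these libraries and are no test of the order. By that rule 7 of 9 neighbouring pairs were apart. Mir467d exceeded Mir467e 1.59-fold (log2 ratio 0.67 ± 0.02, SD, n = 2), and Mir467e exceeded Mir467c 1.17-fold (0.22 ± 0.08). Mir467c exceeded Mir669l 2.77-fold (1.47 ± 0.01). Mir669l and Mir669o were not apart by that rule, with a log2 ratio of 0.17 ± 0.03. The interval left out equality in replicate 1 (0.14 to 0.25) but not in the shallower replicate 2 (-0.03 to 0.32). Mir669o exceeded Mir669c 2.74-fold, Mir669c exceeded Mir669e 3.65-fold and Mir669e exceeded Mir466n 1.84-fold (log2 ratios 1.45 ± 0.17, 1.87 ± 0.10 and 0.88 ± 0.22). Mir466n exceeded Mir669h 4.69-fold (2.23 ± 1.09), but the fold was 2.75 in replicate 1 and 8 in replicate 2, where Mir669h had 4 counts. Mir669h and Mir297a-2 were not separated, since the log2 ratio was 1.87 in the first library but -0.32 in the second. Counts were not divided by length: the sequenced RNA was under 30 nt, and the tables do not say where in a hairpin a read lay. Dividing by the length of the hairpin kept the direction of all 9 pairs. How efficiently each miRNA is captured was not measured, so these ratios compare counts.

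By family, 14 Mir467 members held 82.3% ± 0.19 of the cluster's counts (SD, n = 2), or 3254 ± 33.9 CPM. The 20 Mir669 members held 17.1% ± 0.25, or 678 ± 18.6 CPM. The 20 Mir466 members, as many as for Mir669, held 0.431% ± 0.035, or 17.0 ± 1.17 CPM, and the 5 Mir297 members 0.0574% ± 0.0083. The other 46 members have only Gm symbols, of which RefSeq placed 0 in a family. They held 30 counts in replicate 1 and 6 in replicate 2, on 6 of the 46 genes. Families therefore go by symbol, although some Gm hairpins are exact copies of family members. Gm25022 is a copy of Mir467a-2, Gm25943 of Mir466b-4, Gm25285 of Mir466c-2 and Gm26092 of Mir669a-1. These Gm genes were at 0 counts in both libraries, so placing them would change family sizes but no family sum.

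Mir467 exceeded Mir669 4.80-fold (log2 ratio of the sums 2.26 ± 0.02) and Mir466 191-fold (7.58 ± 0.11). Mir669 exceeded Mir466 39.9-fold (5.32 ± 0.14), and Mir297 was below Mir466 by 7.53-fold (-2.91 ± 0.09). All 4 ratios were larger than the spread, with exact intervals excluding equality in each library. Within each family few genes carried the sum. Of the 14 Mir467 members 3 were detected, and the 11 copies named Mir467a or Mir467b held 8 counts in replicate 1, 4 each on Mir467a-1 and Mir467b, and 0 in replicate 2. Of the Mir669 members 5 of 20 were detected, of the Mir466 members 1 of 20 and of the Mir297 members 1 of 5. Among the 14 Mir467 hairpins, 10 share every run of 20 bases with another annotated hairpin. So do 6 Mir466, 4 Mir669 and 0 Mir297 hairpins. Reads from such hairpins could hardly be counted, so low values there do not show that a miRNA is absent.

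**Figure D2:**
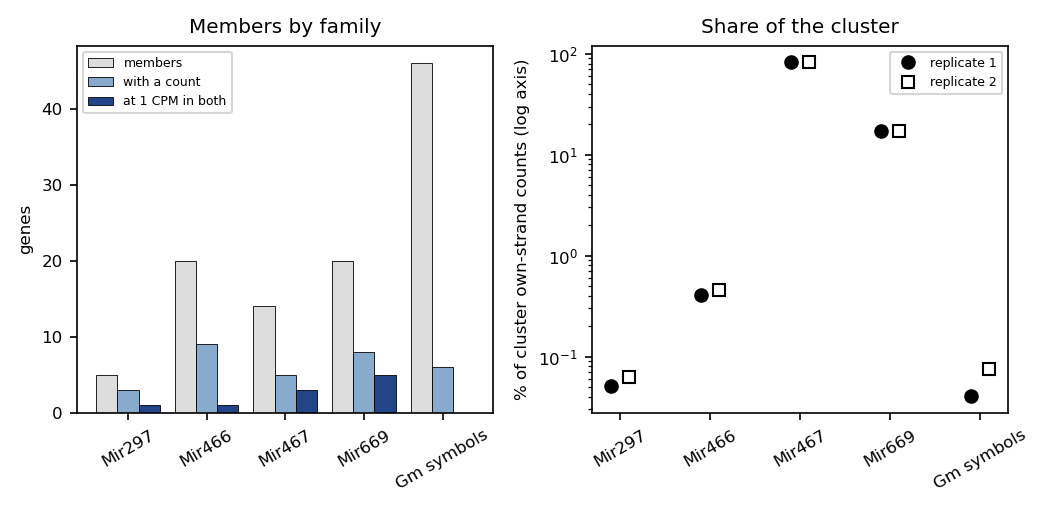
Left, the number of members in each family, those with at least 1 own-strand count in either library, and those at 1 CPM or more in both. Right, each family's share of the cluster's own-strand counts in percent (log axis), with filled circles for replicate 1 and open squares for replicate 2. The Mir467 and Mir669 families hold 82.3% and 17.1% on average, and the 46 members with Gm symbols are the most numerous and hold under 0.1% in each library.

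Counts were unevenly spread along the array. Between Mir467c and Mir467e lie 60 members over 30.3 kb, a stretch chosen after its values were seen and so given with no test. Those 60 genes together held 17 counts in replicate 1 and 1 in replicate 2, or 0.0231% and 0.0127% of the cluster. Of them 5 had a count at all, while 26 of the 45 members on the flanks or at the borders did. The longest unbroken run at 0 counts in both libraries spans 38 genes, from Gm24761 to Gm23571. In this stretch the Mir467a and Mir467b copies recur in tandem, with a median of 2455 nt from one start to the next (range 2413 to 4880 nt). The widest step, from Mir467a-9 to Mir467a-10, spans Gm25022. Its hairpin is an exact copy of Mir467a-9, but its symbol left it out of these steps.

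The same stretch holds the most repeated sequences. Each hairpin was cut into all its 20-mers (runs of 20 bases), and a 20-mer was called unique when it occurs on neither strand of any other annotated miRNA hairpin. Sequence outside annotated hairpins was not searched, so a unique 20-mer may still recur elsewhere in the genome. In the stretch 40 of 60 members had no unique 20-mer, against 2 of 45 outside it. Hairpins with an exact copy numbered 37 of 60 in the stretch and 1 of 45 outside. The most copied sequence is shared by 7 genes, Mir467a-2, Mir467a-4, Mir467a-5, Mir467a-7, Mir467a-8, Mir467a-9 and Gm25022, all at 0 counts. A second is shared by Mir467a-3, Mir467a-6 and Mir467a-10, also at 0. A read from an exact copy fits each of its copies, so such genes could hardly gather counts at any level.

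Reads that mapped to several places are left out, so members with no unique 20-mer could hardly gather counts. The split of counts by unique sequence was therefore largely set by the counting. The 63 members with at least 1 unique 20-mer held 73653 of 73657 counts in replicate 1 and all 7903 in replicate 2, and 30 of them had a count. Of the 42 members with none, Mir467a-1 had 4 counts in replicate 1 and the other 41 were at 0. Over the other genes of the table the same split gave 4 of 216 hairpins with a count where no 20-mer was unique and 745 of 1573 where at least 1 was. The share with a count was thus 2.38% and 47.6% in the cluster against 1.85% and 47.4% elsewhere. At 1 CPM in both libraries the shares were 0% and 15.9% in the cluster against 1.39% and 25.8% elsewhere. Hairpins with at least 1 unique 20-mer were not alike on the 2 sides. In the cluster 61 of 63 were only partly unique, against 610 of 1573 elsewhere. Among partly unique hairpins 28 of 61 members (45.9%) had a count, against 125 of 610 (20.5%) elsewhere. In that class 10 members (16.4%) were detected at 1 CPM in both libraries, against 80 (13.1%) elsewhere. Whether multimapping reads came from the members at 0 was not tested, since the tables do not say where such reads map.

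Among members with sequence of their own, the unique share and the counts both varied widely. Mir467d, the most abundant, had 25 unique of 66 20-mers (37.9%), 19 of them among those nearer its 5′ end. Mir467e had 39 of 68 and Mir467c 47 of 78. In pairs picked after the values were seen, Mir467c and Mir467e share 29 20-mers, and Mir467d shares 15 with each of them. With Mir467b, which had 4 counts in replicate 1 and 0 in replicate 2, Mir467d shares 25. Mir669e had 95 of 100 unique and only 26.0 ± 0.43 CPM. Mir466g was unique at all 61 of its 20-mers and had 6 counts in replicate 1 and 0 in replicate 2. Mir466h, unique at 58 of 62, had 13 and 0.

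Of the 24 members with at least 50% unique 20-mers, a limit set after the values were seen, 15 had a count and 8 were detected. The other 9 were at 0 in both libraries, among them Mir669b, with 68 of 78 unique, Mir669i, with 79 of 108, and Gm23578, with 74 of 85. Mir466m and Mir466f-1, the first members of the window, were also at 0 own-strand counts, with 27 of 65 and 33 of 75 unique. Across the 105 members Spearman's rho between the share of unique 20-mers and the summed counts was 0.58, and across the 63 with any it was 0.38. The first value includes the 42 members with no unique 20-mer, which the counting keeps near 0. Members share libraries and ancestry and are not independent, so no p is given.

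**Figure D3:**
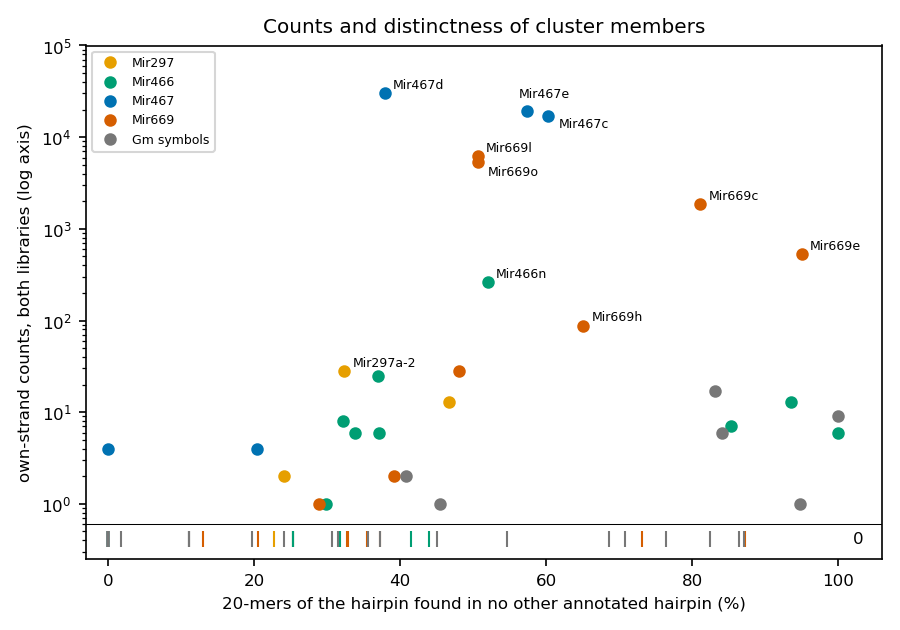
Own-strand counts summed over both libraries (log axis) against the share of each hairpin's 20-mers that occur in no other annotated hairpin, in percent; points are members with a count, coloured by family, and ticks below the line are members at 0. Members at 0% lie on the zero line except Mir467a-1, and the 10 named members range from 32.4% to 95%.

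Each gene's counts in the libraries were then compared by an exact two-sided binomial test against the ratio of the totals, and p-values were adjusted by Benjamini-Hochberg over 549 genes with 10 or more summed counts. This compares 2 libraries, not conditions, and allows for counting error alone. Of the 15 members tested, 0 passed an adjusted p of 0.05 with a fold of 2, where 2.55% of all tested genes did (1.09% higher and 1.46% lower in replicate 2). By edgeR's exact test, at the same adjusted p and fold, 0 members were called, against 4 of the 549 genes. Its dispersion was estimated with the 2 libraries as 1 group, so the difference tested also entered the dispersion, which makes that test strict. At an unadjusted binomial p under 0.05 the count was 1 member, against 155 of the 549 genes. That 1 was Mir467c, at a log2 ratio of -0.12 (interval -0.20 to -0.05; exact binomial, adjusted p = 0.00894), which also passed after adjustment but far below a fold of 2. Without a fold minimum 124 of the 549 genes passed.

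Over the 15 tested members the median log2 ratio, replicate 2 over replicate 1, was -0.07, with 6 higher and 9 lower in replicate 2, and over all 549 genes the median was -0.04. For the 8 members with at least 10 counts in each library the ratios ran from -0.12 for Mir467c to 0.34 for Mir466n. Mir467d stood at 0.02 (interval -0.03 to 0.08) and Mir467e at 0.00 (-0.07 to 0.07). Mir669h had the lowest ratio among detected members, -1.20, with an interval from -3.11 to 0.21 that includes equality. Depth limits the rest: 13 members had counts in replicate 1 only, at most 13 each, which at the depth of replicate 2 would be at most 1.42 counts. The 2 members with a count in replicate 2 only, Gm25316 and Mir466d, had 1 each.

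**Figure D4:**
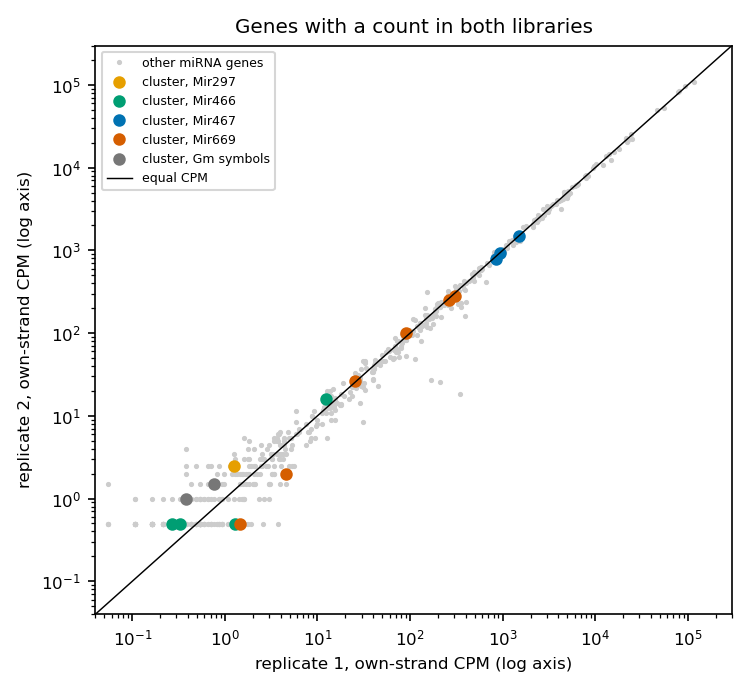
Own-strand CPM in replicate 1 against replicate 2 (both log axes) for genes with a count in both libraries, with cluster members coloured by family, other miRNA genes in grey and a line of equal CPM. The members above 10 CPM lie close to the line, from a log2 ratio of -0.12 to 0.34, and the scatter grows toward 1 CPM, where replicate 2 rests on single counts.

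Relatives elsewhere in the genome gave no counts. The 10 genes of the Mir297, Mir466, Mir467 and Mir669 families outside the window, on chromosomes 3, 5, 7, 9, 10, 11 and 13, were at 0 on both strands in both libraries. Against their limit of 3 counts per library, the cluster sum was at least 24552-fold higher in replicate 1 and at least 2634-fold higher in replicate 2. Each of these 10 hairpins has unique 20-mers, from 20 in Mir297-1 to 92 in Mir466f-4. At the edge of the window, Gm22677, 133 nt before it, was at 0, and Gm22072, 593 nt before it, had 7 counts in replicate 1 and 0 in replicate 2. The next gene of the table downstream, Mir511, with 15 and 4 counts, lies outside Sfmbt2.

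The other large imprinted miRNA cluster, Dlk1-Dio3 on chromosome 12, was taken from the start of Meg3 to the end of Mirg. Its 53 genes held 5.75% ± 0.03 of miRNA counts. The Sfmbt2 cluster, with 105 genes, was 14.6-fold below it (log2 ratio -3.86 ± 0.01), which was larger than the spread. In Dlk1-Dio3 45 of 53 genes were detected, and 46 of its 53 hairpins had only unique 20-mers, against 2 of 105 in the Sfmbt2 cluster.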

How the data were processed

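The authors deposited 1 table of unnormalised counts for each library, made on mm10 with GENCODE M4 as the notes filed with the tables say. The aligner and counter were not given in these sources. No header names the 3 count columns. Since the last 2 sum to the first at each gene, the first was read as both strands. The last 2 were taken as own strand and opposite strand, in that order, which the sums alone do not show. Summary rows were kept out of totals and tests. Symbols and positions (1-based) came from GENCODE M21 on GRCm38, which gave all 105 members the same ID version. It lists 12 more miRNA genes in the window, 9 of them Mir669a copies, which have no row and were not analysed here. CPM, shares with exact 95% Clopper-Pearson intervals, ratios and exact binomial tests were computed from the deposited counts with Python 3.11.15, scipy 1.17.1 and statsmodels 0.14.6. Alternatives used edgeR 4.0.16 and DESeq2 1.42.0. The test was checked on simulated data. An exact sign-flip permutation test on 2 libraries cannot go below p = 0.5 and was not used. Hairpins came from the M21 transcripts; hairpins that overlap in the genome counted as 1 place, a choice made after values under the first definition, which counted antisense hairpins at the same place as copies, were seen; it changed no member's value. With no genome used, uniqueness was taken over annotated hairpins.

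The members and gene lists were chosen with earlier results of these data known. Named members were those at 1 CPM in both libraries, the top member of each family, those with opposite-strand counts or past the library test, those at the window's edges, the first 4 at 0 in genome order and the leading relatives outside. Others were named after their values were seen.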

Additional observations from a re-analysis of the deposited data

How the results depend on the processing

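No paired analysis was possible because the study has 1 group. Of the 58 alternatives run on the main results, 50 were rated the same, 6 moved and 2 gained a call that the main setting lacked. For ratios, the same means that direction and call were kept. Shares and counts have no direction or call, and the rating allowed some change there. For members at 1 CPM or more it covered 12 without replicate 2 in place of 10. Some of the 50 could not do otherwise. Mir467d is in neither sum of the ratios of Mir297 and Mir669 to Mir466, so leaving it out changed nothing there. Summing both strands added only 2 counts to the members, in replicate 1, so the family ratios could hardly move. The cluster's share, 0.395%, was 0.377% with both strands summed, 0.215% of all mapped reads and 0.245% without Mir467d, its most abundant member; without either replicate it ran from 0.392 to 0.399%. The log2 ratio between libraries, -0.03, was -0.055 without Mir467d and -0.039 with DESeq2 size factors, both with intervals excluding equality, and -0.0080 with TMM factors. Members with any count, 31, numbered 18 without replicate 1 and 29 without replicate 2, and 16 had a count in both. Without a fold minimum 1 member passed the library test in place of 0. Members at 1 CPM or more, 10, numbered 8 to 11 over the limits tried, 11 without replicate 1 and 12 without replicate 2. The ratio of Mir669h to Mir297a-2 turned from 0.77 to -0.32 without replicate 1 and was 1.87 without replicate 2, on 4 and 5 counts in replicate 2. Alternatives for neighbouring members were chosen after seeing the data. Without Mir467d, Mir467 exceeded Mir669 by 1.37 on the log2 scale, Mir467 exceeded Mir466 by 6.69, and the log2 ratio to Dlk1-Dio3 was -4.55.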
